A study of Mus musculus with 12 samples.

Results

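The cytosolic ribosomal protein genes encode the protein parts of the 40S and 60S subunits of the ribosome that translates nuclear mRNA. In the table of counts, rows were taken whose mouse symbol is Rpl or Rps with digits and at most 1 letter of a, x, l or y, or Rplp0 to Rplp2, or Rpsa, leaving out symbols with -ps, and that held at least 10 counts in every tumor. Of 55401 rows, 83 carried such a symbol and 80 met the minimum. All 80 also passed the filter on low counts that left 20818 genes for testing. The 3 rows that missed the minimum were Rpl10l, with 0 to 4 counts per tumor, Rpl39l, with 0 to 30, and Rpl3l, with 0 to 306. The members nearest to the limit were Rps4l, with 48 to 226 counts, and Rpl32l, with 63 to 160. In the annotation used for lengths, the transcripts of Rps4l, Rpl32l and Rpl6l hold 0 nt of coding sequence. These members are included by their symbols only. The symbol rule leaves out, among others, Rps3a1, Fau and Rack1, which also contribute proteins to the ribosome and are given beside the members.

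RNA was sequenced from 12 subcutaneous tumors, 3 in each of 4 groups, taken 21 days after 125000 cells of the mouse prostate cancer line TC2Ras were implanted in each flank. In the Control group TC2Ras cells were implanted alone and the mice drank water with 0 ppb inorganic arsenic (iAs), and in the ASC group 1% ASC-GFP cells, primary adipose stromal cells from GFP-transgenic mice, were mixed in. The As300 group (labelled A300) had TC2Ras cells alone and 300 ppb iAs, and the ASC_As300 group (labelled ASC300) had 1% ASC-GFP cells and 300 ppb iAs. All mice had first eaten a purified low-arsenic chow, and both flank tumors of a mouse were combined into a single sample, so that each value stands for the pooled tumors of 1 mouse and for 1 cancer cell line. The sample labels name adipose stromal cells as the cell type, while the protocols describe whole tumors. Summed markers of fibroblasts were at 5720 to 10730 CPM (counts scaled by TMM to a common library size), those of macrophages at 1520 to 2790 CPM and those of endothelium at 223 to 370 CPM. Epithelial markers summed to only 27.7 to 364 CPM, with 5 of 10 at 0 in at least 1 tumor. Total counts were 39157647 to 55168642 per tumor, and TMM factors were 0.954 to 1.05.

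Ribosomal protein mRNAs are short and abundant, and in most cells they are made in matched amounts. Most of them begin with a pyrimidine-rich stretch, the 5′ terminal oligopyrimidine motif, through which mTORC1 signaling and the La-related protein Larp1 set their translation and stability. Ribosomal proteins that are not built into subunits are degraded, and Rpl5 and Rpl11 can instead bind Mdm2 and thereby stabilize p53.

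Start sites are shown for the members that passed the test in As300 tumors (below) and for those that varied least. Each window holds 30 bases before and 30 bases from the annotated RefSeq start (GRCm38.p6), and capitals mark the longest run of C and T that reaches within 20 bases of that start. An annotated start can lie some bases from the start used in these tumors. In Rps16, Rps19, Rps28, Rpl4, Rpl5 and Rps15a the marked run lies wholly before the annotated start. There the letters do not show how the mRNA begins. The members that passed were these, with Rps20, Rps29 and Rpl36 named only.

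Rpl18, chr7:45718041-45718100, plus strand: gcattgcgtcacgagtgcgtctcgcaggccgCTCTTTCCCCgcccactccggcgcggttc

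Rplp2, chr7:141447621-141447680, plus strand: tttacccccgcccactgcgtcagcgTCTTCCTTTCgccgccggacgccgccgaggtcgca

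Rps16, chr7:28350659-28350718, plus strand: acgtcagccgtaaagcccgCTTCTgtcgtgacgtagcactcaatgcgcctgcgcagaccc

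Rps19, chr7:24884562-24884621, plus strand: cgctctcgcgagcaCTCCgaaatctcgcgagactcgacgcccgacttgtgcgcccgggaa

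Rps21, chr2:180257349-180257408, plus strand: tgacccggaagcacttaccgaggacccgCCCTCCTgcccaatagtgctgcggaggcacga

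Rps28, chr17:33824533-33824592, minus strand: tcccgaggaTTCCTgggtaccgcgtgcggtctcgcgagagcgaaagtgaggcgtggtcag

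The members with the lowest variation over the 12 tumors were these, with Rpl7 named only.

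Rpl4, chr9:64173357-64173416, plus strand: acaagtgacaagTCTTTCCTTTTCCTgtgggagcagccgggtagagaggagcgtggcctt

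Rpl5, chr5:107900498-107900557, plus strand: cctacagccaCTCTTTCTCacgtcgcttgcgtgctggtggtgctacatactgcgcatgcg

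Rps6, chr4:86857338-86857397, minus strand: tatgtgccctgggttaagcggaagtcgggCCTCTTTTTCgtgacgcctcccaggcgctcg

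Rps15a, chr7:118116118-118116177, minus strand: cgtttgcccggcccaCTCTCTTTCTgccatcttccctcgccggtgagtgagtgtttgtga

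Of the 80 members, 58 had a promoter entry. A run of at least 8 C or T near the annotated start, on the transcribed strand, was present in 29 of the 58 (50%) against 20.8% of 27025 genes with an entry. The letters CCGGAAG, a form of the binding motif of ETS factors such as Gabpa, were found on either strand between 250 bases before and 50 bases after the start in 39.7% of these members and in 9.12% of all genes. The letters AAGATGG, part of the Yy1 motif, were present in 13.8% against 6.48%, and TATAAA in 10.3% against 14.2%. The runs of Rpl4, Rpl5, Rps6 and Rps15a were 9 to 14 bases long. Among the members that passed the test, those of Rpl18 and Rplp2 were 10 bases and those of Rps16, Rps19, Rps21 and Rps28 were 4 to 7. These matches describe the letters near the annotated starts and do not measure the motif of the mRNAs. Their part in the changes below was not tested.

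The members together took 5.30%, 5.58% and 5.58% of all counts in the 3 Control tumors. The shares were 5.85%, 5.57% and 7.14% in ASC, 5.94%, 7.12% and 6.64% in As300, and 5.81%, 6.6% and 6.33% in ASC_As300. All As300 and ASC_As300 tumors lay above all Control tumors, and ASC replicate 2 lay within the Control range. A single other row, CT010467.1, took 11.4% of all counts in ASC replicate 2 and 3.23% to 6.77% in Control. On the TMM scale, the mean log2 CPM of the members was 9.03 in ASC replicate 2 and 8.76 to 8.85 in Control. The mean share was 5.49% ± 0.162 (SD, n = 3) in Control and 6.57% ± 0.593 in As300, a difference of 1.08 percentage points. An exact two-sided permutation test gave p = 0.1 for As300 and p = 0.1 for ASC_As300 against Control, the smallest value that 3 against 3 tumors can give, and p = 0.3 for ASC. Over both ASC levels, tumors with iAs had 0.569 percentage points more (exact permutation p = 0.121), and over both iAs levels, tumors with ASC had 0.188 more (exact permutation p = 0.639). None of the 5 exact permutation p-values was under 0.2 after Benjamini-Hochberg adjustment (0.202 to 0.639).

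**Figure D1:**
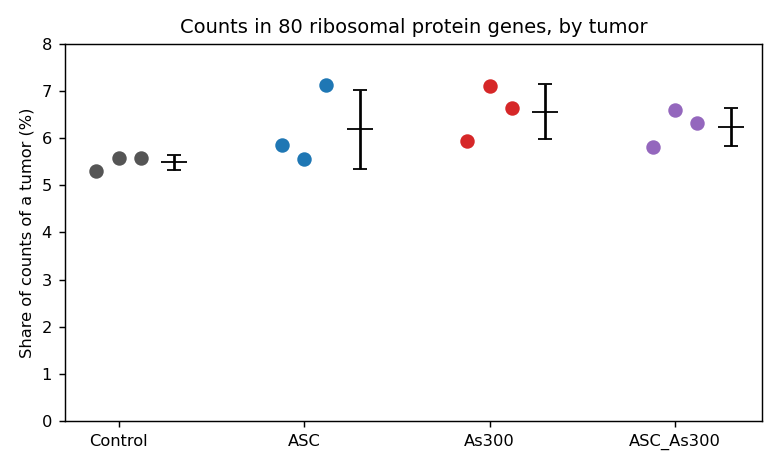
Share of all counts of a tumor (y axis, %) that fell in the 80 ribosomal protein genes, in 4 groups (x axis). Each point is a tumor, and the bar beside the points gives mean ± SD of 3 tumors. Control tumors lay at 5.30% to 5.58% and As300 tumors at 5.94% to 7.12%.

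The level of a member was compared with that of another only per length, as TMM-scaled CPM per kilobase of the shortest principal transcript in GENCODE M21. On this scale Rplp0 (2499), Rplp1 (2457), Rpl23a (2143), Rpl41 (2140) and Rpl19 (2111) were highest. Rplp0 and Rplp1 belong to the stalk of the 60S subunit that recruits elongation factors, and Rpl41 encodes the smallest ribosomal protein. The lowest were Rps4l (2.96), Rpl32l (5.82) and Rpl6l (87.5), all without annotated coding sequence, and then Rpl21 (97.4) and Rps20 (128). The last of these is set by its annotation, since the only protein-coding Rps20 transcript there is 3706 nt long with 357 nt of coding sequence. The median length over members was 705 nt against 2324 nt over all genes tested.

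Over the 12 tumors the median coefficient of variation (CV) of the members was 15.6% for CPM. Among the genes at 100 CPM or more, the median was higher for the 75 members, at 15.0%, than for all 2006, at 9.92%. The lowest CVs were those of Rpl7 (4.60%), Rpl4 (6.06%), Rpl5 (6.22%), Rps6 (6.25%) and Rps15a (7.42%). The highest were those of Rps4l (57.2%), a gene at only 2.33 CPM, Rpl7a (36.3%), Rpl17 (35.9%), Rps29 (33.6%) and Rps28 (31.9%). Within groups the members moved together: across pairs of members, the median correlation of deviations from the group means was 0.709 over 12 tumors in 4 groups, and 0.141 across pairs of 1931 other genes at 100 CPM or more. These deviations share the library and its scaling. The lowest median correlations with the other members were those of Rps27 (-0.463), Rpl32l (-0.00558), Rps4l (-0.00235) and Rpl21 (0.0909).

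Several members that varied most have near-identical copies elsewhere in the genome, with which reads may be divided. The 299 rows named as pseudogenes of members, 224 of which held any count, took 0.402% to 0.545% of the counts of a tumor. In 16 members, over 10% of the counts of a gene and its named copies lay in the copies. The share was 74.9% for Rpl17, 73.7% for Rpl21, 66.7% for Rpl7a, 60% for Rps12 and 51.8% for Rps27, whose retrogene Rps27rt is counted among its copies. In ASC replicate 3, Rps27 was at 65.4 CPM, its lowest value, and Rps27rt at 426 CPM, its highest. In ASC_As300 replicate 1, Rps27 was at 244 CPM and Rps27rt at 70.4 CPM, its lowest. Summed with the copies, the CV fell from 30.7% to 13.3% for Rps27, from 35.9% to 8.74% for Rpl17, from 36.3% to 15.0% for Rpl7a and from 25.2% to 10.8% for Rpl21. Rps28 had no named copy, and the only copy of Rps29 held 0.00397% of their counts. Values of Rps27, Rpl17, Rpl7a and Rpl21 alone are therefore uncertain. Among members named below for As300, the share in copies was 33.5% for Rps10, 19.3% for Rps16 and 12.5% for Rps13. Summed with the copies, the CV of Rps16 went from 22.35% to 22.14%.

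**Figure D2:**
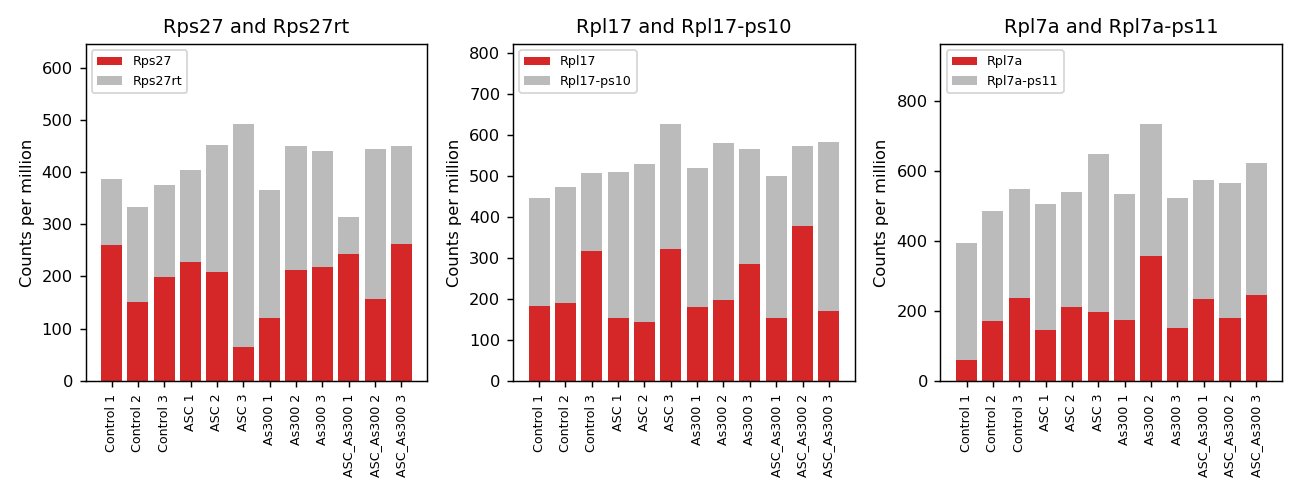
CPM (y axis) of Rps27, Rpl17 and Rpl7a (red) stacked with 1 copy each, Rps27rt, Rpl17-ps10 and Rpl7a-ps11 (grey), in each of 12 tumors (x axis). The red part varied up to 5.99-fold for Rpl7a and 4.00-fold for Rps27, and the sums of red and grey varied less.

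The first comparison asks how iAs in drinking water alters tumors of TC2Ras cells alone. In As300 tumors 74 of 80 members were higher than in Control, with a median log2 fold change of 0.35, where the median of all genes tested was -0.03. A call required an adjusted p under 0.05 (edgeR quasi-likelihood test, Benjamini-Hochberg over all genes) and a change of at least 1.5-fold. Of the members 9 were called, all higher, beside 1.06% of all genes called in either direction. At an adjusted p under 0.05 without a minimum fold, 14 members rose, beside 1.58% of all genes. At an unadjusted p under 0.05, 52 members were higher, against 11.2% of all genes, and none was lower. The As300 and Control tumors did not overlap in 55 members that were higher in As300, against 14.5% of all genes, and in Rps24, which was lower (log2 fold change -0.13, edgeR adjusted p = 0.448). In bulk tissue, more RNA per cell and more cells of a type with this RNA cannot be told apart.

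The called members of the 40S subunit were Rps20, Rps16, Rps19, Rps21, Rps28 and Rps29. Rps20 was at 343, 354 and 336 CPM in Control and at 480, 562 and 598 CPM in As300. All As300 tumors exceeded all Control tumors, and the log2 fold change was 0.67 ± 0.116 (SE; edgeR adjusted p = 0.0401). Rps28, a small protein near the mRNA exit site, was at 144, 120 and 123 CPM in Control and 191, 297 and 289 CPM in As300. This was the largest change among the members, with a log2 fold change of 1.01 ± 0.207 (SE; edgeR adjusted p = 0.043), and As300 replicate 1 was the lowest of its group. Rps29, a zinc-binding protein of the subunit head, was at 92.1, 74.1 and 80.2 CPM in Control and 133, 175 and 175 CPM in As300, a log2 fold change of 0.97 ± 0.226 (SE; edgeR adjusted p = 0.0453).

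Rps19, whose human counterpart is the gene most often mutated in Diamond-Blackfan anemia, was at 365, 322 and 315 CPM in Control and 476, 595 and 568 CPM in As300. Its log2 fold change was 0.71 ± 0.143 (SE; edgeR adjusted p = 0.043), with no overlap of the groups. Rps16 was at 421, 369 and 370 CPM in Control and 597, 715 and 617 CPM in As300, a 1.66-fold rise. Rps21 was at 192, 172 and 212 CPM in Control and 261, 363 and 349 CPM in As300, a 1.69-fold rise. Both also kept the groups apart.

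The 60S subunit held the other called members, Rplp2, Rpl18 and Rpl36. Rplp2, an acidic protein of the stalk, was at 292, 302 and 325 CPM in Control and 456, 521 and 452 CPM in As300, a 1.55-fold rise. Rpl18 was at 425, 425 and 417 CPM in Control and 614, 801 and 643 CPM in As300, a 1.62-fold rise. Rpl36 was at 142, 197 and 217 CPM in Control and 295, 353 and 297 CPM in As300, a 1.70-fold rise. In each the lowest As300 tumor exceeded the highest Control tumor. The other members at an adjusted p under 0.05, Rps2, Rps13, Rps18, Rps10 and Rps3, all belong to the 40S subunit. They rose by 1.38-fold to 1.499-fold (Rps2), under the minimum. Of 32 members of the 40S subunit 6 were called, with a median log2 fold change of 0.42. Of 45 of the 60S subunit without the stalk 2 were called, with a median of 0.30. Of the 3 stalk members, which also belong to the 60S subunit, 1 was called, with a median of 0.56.

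These calls lie close to the threshold, at adjusted p-values of 0.0401 to 0.0453. No member was called without any single Control tumor, without As300 replicate 2 or 3, without ASC replicate 2, or without any single ASC_As300 tumor. In these fits 0 to 28 of all genes were called. ASC and ASC_As300 tumors enter this contrast through the spread, the scaling and the filter that all groups share. Without As300 replicate 1, 5 members and 122 of all genes were called. The median log2 fold change of the members stayed between 0.27 and 0.40 over these fits. No member was called, either, with total counts as the only scaling, without a filter on low counts or after a correction for GC content, where 0, 8 and 1 of all genes were called. The medians of the members were then 0.30, 0.36 and 0.31.

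Well-known members outside these calls gave the following values. Rpl5 was at 1280, 1316 and 1495 CPM in Control and 1248, 1399 and 1313 CPM in As300. The groups overlapped, and the 95% interval of its log2 fold change ran from -0.25 to 0.15. Rps6, which S6 kinases phosphorylate, was at 1083, 1074 and 1170 CPM in Control and 1053, 1216 and 1209 CPM in As300, with an interval from -0.13 to 0.26. Rpl11, the partner of Rpl5, was at 514, 485 and 509 CPM in Control and 533, 653 and 648 CPM in As300, and its log2 fold change of 0.28 did not pass (edgeR adjusted p = 0.1). Rps14 had a log2 fold change of 0.45 (edgeR adjusted p = 0.0659) and Rpsa, also known as a laminin receptor, of 0.27 (edgeR adjusted p = 0.173). In 32 of 80 members, the 95% interval lay wholly within a 1.5-fold change in either direction, beside 7206 of all 20818 genes.

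Paralogs were read beside their partners. Rps27l, a p53 target that is close to Rps27 in sequence, was at 60.7, 59.3 and 61.3 CPM in Control and 68.2, 86.6 and 86.7 CPM in As300. These groups did not overlap, and the log2 fold change was 0.41 (edgeR adjusted p = 0.0897). Rpl22 and its paralog Rpl22l1 had log2 fold changes of 0.23 and 0.61 in As300 (edgeR adjusted p = 0.137 and 0.0596). Rpl39 was at 239, 223 and 258 CPM in Control and 310, 394 and 391 CPM in As300, without passing the test (edgeR adjusted p = 0.0538). Its paralog Rpl39l stayed at or under 30 counts per tumor. Rps4l, without annotated coding sequence, was at 0.8 to 6.1 CPM, whereas Rps4x, the X-linked gene, was at 1542 to 2094 CPM. Rpl36a and Rpl3 had log2 fold changes of 0.01 and 0.21 in As300.

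**Figure D3:**
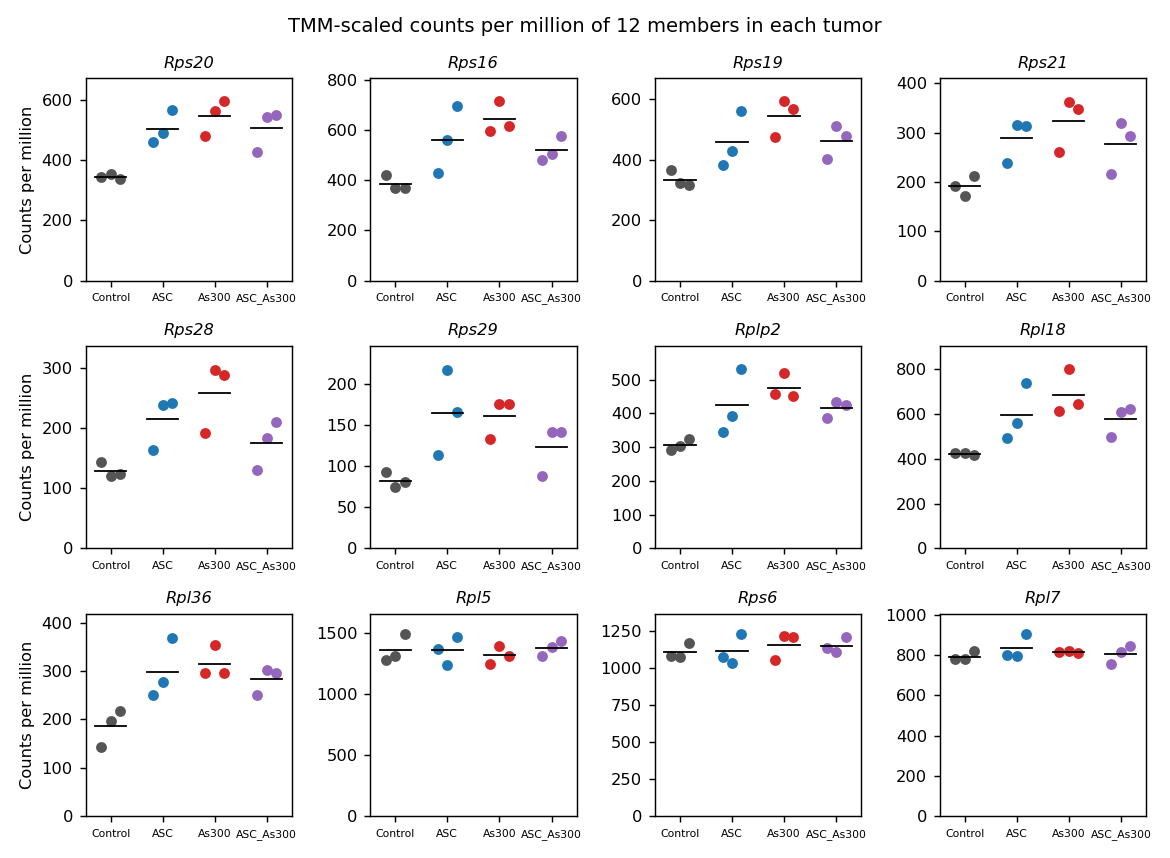
TMM-scaled CPM (y axis, from 0) of the 9 members called in As300 against Control and of Rpl5, Rps6 and Rpl7, in 4 groups (x axis). Each point is a tumor and each line the mean of 3. In the 9 called members every As300 tumor lay above every Control tumor, while Rpl5, Rps6 and Rpl7 varied by 4.60% to 6.25% (CV) over the 12 tumors.

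The second comparison asks what ASC add when mixed with TC2Ras cells without iAs. In ASC tumors 76 of 80 members were higher than in Control and the median log2 fold change was 0.31, where the median of all genes was 0.00. No member was called by edgeR, beside 0.721% of all genes (150). The DESeq2 Wald test called 5 members and 450 of all genes. At an unadjusted p under 0.05, 45 members were higher, against 8.55% of all genes, and none was lower. In 43 members the ASC tumors all exceeded the Control tumors, against 9.94% of all genes. The smallest p-values were those of Rps20, Rps13, Rps29, Rpl36 and Rps16.

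Rps20 was at 459, 491 and 566 CPM in ASC, above its 336 to 354 CPM in Control, and missed the threshold (log2 fold change 0.55 ± 0.116 SE; edgeR adjusted p = 0.0528). Rps29 was at 113, 216 and 165 CPM in ASC, with ASC replicate 1 nearest to the Control tumors (log2 fold change 1.00 ± 0.226 SE; edgeR adjusted p = 0.0692). Rps13 was at 366, 368 and 487 CPM in ASC and 287, 267 and 298 CPM in Control, a 1.43-fold difference (edgeR adjusted p = 0.0665). ASC replicate 3 had the highest mean log2 CPM of the members among the 12 tumors. Without it the median log2 fold change fell from 0.31 to 0.16. Without ASC replicate 1, which was the lowest of its group, 14 members were called, and the calls over all genes went from 150 to 355. Beside this, macrophage markers summed to 1862 to 2790 CPM in ASC and 1520 to 1951 CPM in Control. Of these 4 of 10 were called higher, beside 147 of all 20818 genes, and none was at 0 in any tumor. B cell markers summed to 8.55 to 24.1 CPM in ASC and to 289, 10.9 and 11.5 CPM in Control replicates 1, 2 and 3. Of these 8 of 10 were lower at an unadjusted p under 0.05, and none was called. Epithelial markers summed to 32.2 to 49.0 CPM in ASC and to 364, 67.3 and 95.2 CPM in Control replicates 1, 2 and 3. Of 8 tested, 3 were lower at an unadjusted p under 0.05. Mitochondrial mRNAs summed to 26430 to 28930 CPM in ASC and 29670 to 33670 CPM in Control, with 3 of 13 lower at that threshold. Of all 20818 genes, 1431 were lower at that threshold. The part of these markers in the ASC difference was not tested.

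The third comparison asks what the combination does. In ASC_As300 tumors 77 of 80 members were higher than in Control, with a median log2 fold change of 0.26 where all genes had -0.02. No member was called by edgeR, beside 0.807% of all genes (168). DESeq2 called 1 member and 390 of all genes. At an unadjusted p under 0.05, 34 members were higher, against 8.7% of all genes, and none was lower. In 40 members the groups did not overlap, against 13.5% of all genes. Rps20, at 428, 543 and 552 CPM in ASC_As300, was the only member at an adjusted p under 0.05 (edgeR adjusted p = 0.0402), with a 1.47-fold difference that is under the minimum. Rpl36 was at 251, 302 and 295 CPM (1.52-fold, edgeR adjusted p = 0.124) and Rps19 at 402, 510 and 479 CPM (1.39-fold, edgeR adjusted p = 0.159). In 44 members the 95% interval lay within 1.5-fold, among them Rps24, Rpl5 and Rpl7, beside 8138 of all 20818 genes. Macrophage markers summed to 2099 to 2575 CPM in ASC_As300, with 4 of 10 called higher, beside 163 of all 20818 genes. Epithelial markers summed to 27.7 to 42.4 CPM, with 1 of 8 tested called lower, beside 5 of all genes. B cell markers summed to 11.5 to 12.4 CPM, within their range of 10.9 to 289 CPM in Control. Of these 9 of 10 were lower at an unadjusted p under 0.05, and none was called. Adipocyte markers summed to 103 to 165 CPM, against 263 to 566 CPM in Control, with 8 of 10 lower at an unadjusted p under 0.05. Mitochondrial mRNAs were at 22860 to 28870 CPM, with 8 of 13 lower at that threshold. Of all 20818 genes, 1353 were lower at that threshold. The part of these markers in the difference of the members was not tested.

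All 3 comparisons share the Control tumors, which had the 3 lowest mean log2 CPM of the members among the 12 tumors. The effects averaged over the other factor use all tumors. Tumors with iAs had a median log2 fold change of the members of 0.15 over those without, with 73 of 80 higher. No member and no other gene was called by edgeR (0% of genes), no member by DESeq2, and 27 members were higher at an unadjusted p under 0.05, against 7.51% of all genes. The smallest p-values were those of Rps20, Rps27a (encoding a fusion of ubiquitin with a 40S protein), Rps19, Rps18 and Rplp2, with log2 fold changes of 0.30 to 0.36 and edgeR adjusted p-values of 0.181 to 0.19. Tumors with ASC had a median of 0.09 over those without, with 76 of 80 higher. No member was called by edgeR, beside 1.45% of all genes, or by DESeq2. At an unadjusted p under 0.05, 4 members (Rps13, Rps20, Rps27l and Rpl36) were higher, against 6.93% of all genes. DESeq2 calls over all genes are not given here for either averaged effect, so its counts of members cannot be read alone. The 95% interval lay within 1.5-fold in 71 members for iAs and in 73 for ASC. Of all 20818 genes, 10882 had such an interval for iAs and 10848 for ASC.

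The interaction asks whether the effect of the combination differs from the sum of both single effects. It was below 0 in 74 of 80 members, with a median log2 value of -0.42 where all genes had 0.01. No member and no other gene was called by edgeR (0% of genes), DESeq2 called 13 members and 174 of all genes, and 44 members were lower at an unadjusted p under 0.05, against 6.55% of all genes. Rps28 had an interaction of -1.30 ± 0.291 (SE) and Rps29 of -1.39 ± 0.318 (SE) on the log2 scale, both at an edgeR adjusted p of 0.309. Rps28 was at 163, 239 and 243 CPM in ASC, 191, 297 and 289 CPM in As300 and 131, 183 and 211 CPM in ASC_As300. Rps29 was at 88.0, 141 and 141 CPM in ASC_As300. Both genes were thus lower on average in the combination than in either single treatment, with overlap between the groups. The intervals ran from -1.94 to -0.67 for Rps28 and from -2.08 to -0.70 for Rps29. Among the members, only these lay wholly beyond 1.5-fold, beside 206 of all 20818 genes.

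**Figure D4:**
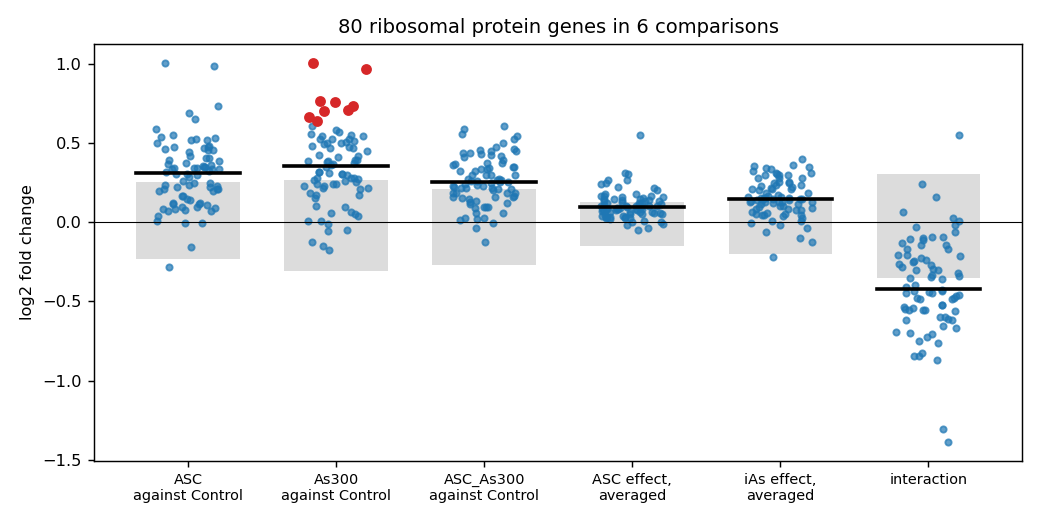
Log2 fold change (y axis) of each of 80 ribosomal protein genes (points, the 9 called ones in red) in 6 comparisons (x axis), with the median of the members (line) and the middle range, from the lower to the upper quartile, of all 20818 genes (grey). The member median ran from 0.09 to 0.35 in the first 5 comparisons and was -0.42 in the interaction.

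The size of the change went with the length of the transcript, and this held for other genes as well. In As300 against Control the median log2 fold change was 0.41 for 19 members under 500 nt, 0.39 for 22 from 500 to under 750 nt, 0.29 for 22 from 750 to under 1000 nt, 0.28 for 11 from 1000 to under 1500 nt and -0.01 for 5 from 1500 to under 3000 nt. Rps20 alone stood in the longest class, from its annotated 3706 nt. Other protein-coding genes had medians of 0.28 (148 genes), 0.23 (440), 0.22 (618), 0.16 (1688), 0.02 (5605) and, from 3000 nt on, -0.15 (6839) in the same classes. In ASC against Control the other genes went from 0.24 under 500 nt to -0.09 from 3000 nt on, with lower values in each longer class. In ASC_As300 they had 0.09 under 500 nt, 0.16 and 0.17 in the next classes up to 1000 nt, and then 0.10, 0.02 and -0.09. In the interaction they went from -0.41 to 0.15, and the members under 500 nt had -0.54. Across members, Spearman's rho of log2 fold change with transcript length was -0.353 in ASC, -0.263 in As300 and -0.26 in ASC_As300, and with GC content 0.417, 0.445 and 0.463. These values are across genes of the same libraries, and genes are not independent replicates.

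Short mRNAs that are no members were lowest in the Control tumors and highest in ASC replicate 3 and As300 replicate 2, as the members were. The tumors between these were ranked partly differently. The mean log2 CPM of 295 other protein-coding genes under 750 nt, at 10 CPM or more, was lowest in the 3 Control tumors, at -0.20 to -0.17 from the mean over tumors, where the members were at -0.25 to -0.17. It was highest in ASC replicate 3, at 0.20, where the members were at 0.28, followed by As300 replicate 2, at 0.16, where the members were at 0.26. The 4648 long genes, of 3000 nt or more, lay at 0.04 to 0.11 in Control and at -0.12 to -0.06 in As300. A correction of each tumor for transcript length lowered the median log2 fold change of the members from 0.35 to 0.18 in As300, from 0.31 to 0.16 in ASC, from 0.26 to 0.16 in ASC_As300 and from -0.42 to -0.18 in the interaction, and left 1 called member in As300. This correction was drawn through all genes, members included. Fragment sizes and RNA integrity of single tumors were not analysed here, and their part in these differences was not tested.

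**Figure D5:**
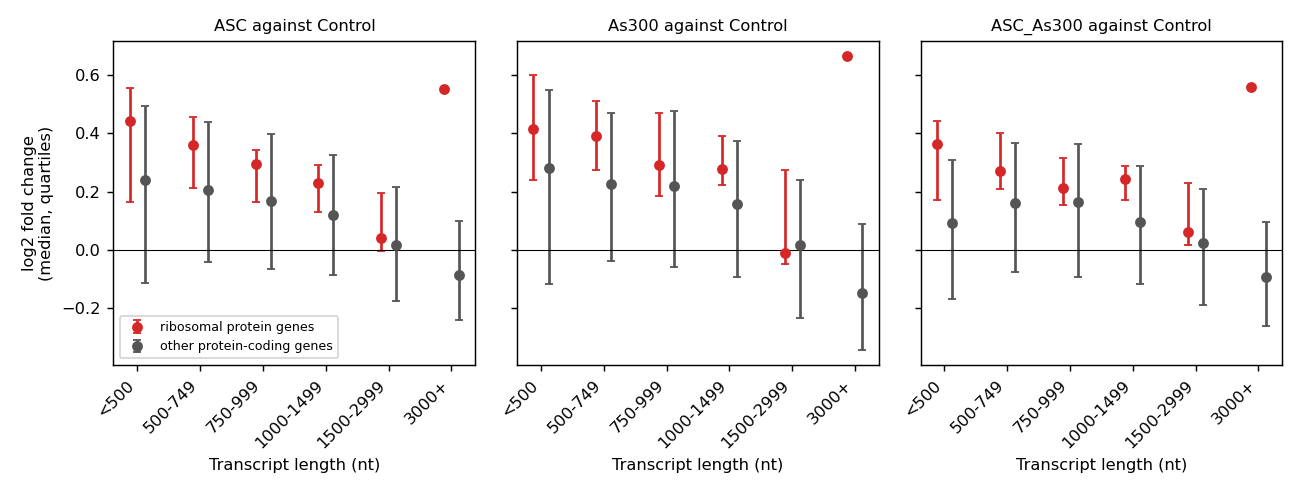
Median log2 fold change (y axis, bars from the lower to the upper quartile) of ribosomal protein genes (red) and of other protein-coding genes (grey) by transcript length in nt (x axis), in ASC, As300 and ASC_As300 against Control. In As300 the medians fell from 0.41 to -0.01 over the first 5 classes in members and from 0.28 to 0.02 in other genes, and the red point in the longest class is Rps20 alone.

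Ribosomal genes outside the symbol rule were measured in the same tumors. Fau, which encodes a ubiquitin-like protein fused to a 40S protein, was at 493, 562 and 556 CPM in Control and 733, 835 and 771 CPM in As300, a 1.45-fold difference with an edgeR adjusted p of 0.043 that is under the minimum fold. Rack1, a 40S scaffold protein, was 1.27-fold higher (edgeR adjusted p = 0.0939). Rps3a1 had a log2 fold change of 0.14 (edgeR adjusted p = 0.511). None of these 3 genes was called by edgeR in ASC, As300 or ASC_As300, and Fau and Rack1 were higher at an unadjusted p under 0.05 in each.

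Among genes that build or use ribosomes, few passed the test. Of 30 translation factors, 1 was called in As300, Eif6, which keeps free 60S subunits apart from 40S subunits and was 1.59-fold higher (edgeR adjusted p = 0.043), and the median of the list was 0.04 on the log2 scale. Eif3a, a subunit of the initiation factor eIF3, was at 0.760 times its Control level (edgeR adjusted p = 0.0596). Of 48 ribosome biogenesis genes none was called by edgeR, 18 were lower and 5 higher at an unadjusted p under 0.05, beside 2701 lower and 2324 higher of all 20818 genes, and the median was -0.10. Gnl3 (nucleostemin), Bms1, Utp20 and Wdr43, which act in the nucleolus on pre-ribosomes, were at 0.759 to 0.802 times their Control level, with edgeR adjusted p-values of 0.0447 to 0.0453. Among 18 regulators of ribosomal protein mRNA, none was called by edgeR, with 1 higher and 4 lower at an unadjusted p under 0.05. Larp4, an RNA-binding protein of the La family, had a log2 fold change of -0.57 and Eif4ebp1, an mTORC1 target that blocks cap-dependent initiation, of 0.52 (both edgeR adjusted p = 0.043), and Gabpa, whose motif is named above, of -0.44 (edgeR adjusted p = 0.067).

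Marker lists of other cell types were set beside the members in As300. Adipocyte markers summed to 566, 383 and 263 CPM in Control and 191, 179 and 117 CPM in As300, without overlap, with 3 of 10 lower at an unadjusted p under 0.05 and 2 of 10 at 0 in at least 1 tumor. B cell markers summed to 289 CPM in Control replicate 1 alone, while the other Control tumors, at 10.9 and 11.5 CPM, overlapped the As300 tumors, at 7.18 to 11.6 CPM. T cell markers were likewise at 92.8 CPM in Control replicate 1 and at 19.1 and 18.0 CPM in the others, against 14.8 to 21.3 CPM in As300. Without Control replicate 1, the median log2 fold change of the members in As300 was 0.35. Skeletal muscle markers ran from 53.2 to 2150 CPM in Control and from 70.7 to 2123 CPM in As300. Proliferation genes were at 2086 to 2170 CPM in Control and 1912 to 2089 CPM in As300. Macrophage markers were at 1520 to 1951 CPM in Control and 1930 to 2058 CPM in As300. Of these 4 of 10 were higher at an unadjusted p under 0.05, beside 2324 of all 20818 genes, and none was called. Mitochondrial mRNAs were at 29670 to 33670 CPM in Control and 24600 to 28720 CPM in As300, with 2 of 13 called lower, beside 74 of all 20818 genes. No gene of the adipocyte, B cell, T cell or muscle lists was called by edgeR. At an unadjusted p under 0.05, all 10 B cell markers and 4 of 10 T cell markers were lower, beside 2701 of all genes. The most abundant row of the table, CT010467.1, took 3.23% to 11.4% of the counts of a tumor. Their part in the differences of the members was not tested.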

How the data were processed

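The values are raw counts per Ensembl gene that the authors deposited as whole numbers. According to the methods and the submitters' processing notes, stranded poly(A) libraries were sequenced in pairs, trimmed with cutadapt 1.1.0, aligned with HISAT2 2.0 and quantified with StringTie 1.3.4. The genome build and the step that made counts are not given in the sources used here. Symbols came from GENCODE M21 (55141 of 55401 rows), as did lengths and GC content (99.9% of tested genes), and promoters from RefSeq. Replicates were tumors of separate mice.

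Here, genes were filtered with filterByExpr, scaled by TMM, and fitted with 1 mean per group over 12 tumors (edgeR 4.0.16, R 4.3.3, quasi-likelihood F test). CPM are TMM-scaled, and log2 CPM carry a prior count of 2. DESeq2 1.42.0, other scalings and filters, corrections for GC content and length, counts divided by 4, added pseudogene rows, the replicate number and leaving out each tumor were the alternatives. The procedure was also run on simulated counts, in which genes varied independently of each other. That run does not test small changes shared by many members. Named members are, per comparison, up to 5 with the smallest p in each direction, the 5 extremes of level and CV, and a list of paralogs and well-known members. Further called members, Rps24, and Rps27rt with other copies were added after their values were seen. Members and lists were chosen with earlier results of these data known.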

Additional observations from a re-analysis of the deposited data

How the results depend on the processing

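No direction turned under any alternative. Of the members in As300, where 9 were called, 14 passed without a minimum fold, 1 after the length correction, and 0 with total counts only, without a filter on low counts or after the GC correction. Over all genes these settings called 593, 37, 0, 8 and 1, against 220, and the medians of the members in the last 3 were 0.30, 0.36 and 0.31. Leaving out single tumors gave 0 to 11 in As300, 0 to 14 in ASC (14 without ASC replicate 1) and 0 to 1 in ASC_As300, and the medians of members ran from 0.16 to 0.40 in ASC, 0.27 to 0.40 in As300 and 0.21 to 0.33 in ASC_As300. In ASC, where no member was called, 5 passed at an unadjusted p with 1.5-fold (of all genes 1019), 5 with DESeq2 (450), 1 with at least 10 counts in every tumor and 1 after the length correction. In ASC_As300, 2 passed at an unadjusted p, and 1 each without a minimum fold (of all genes 213), with DESeq2, after the GC correction and after the length correction. In the interaction, 18 passed at an unadjusted p (of all genes 1211) and 13 with DESeq2 (174). The length correction gave medians of 0.16 in ASC, 0.18 in As300 and -0.18 in the interaction. Calls over all genes also changed between settings. Member counts given here without a number over all genes therefore cannot be read alone. The cause of these changes was not tested.

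Replicate numbers did not pair the tumors: over 18 same-numbered pairs, correlations of deviations were -0.12 to 0.17, with 2 over 0.1, and 3 of 12 tumors correlated best with their own number. With the replicate block, 1 member was called in ASC, 10 in As300 and 1 in ASC_As300, and the median in As300 was 0.35. Calls over all genes in this fit are not given here, so these counts cannot be read alone.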

Other observations

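Mitochondrial ribosomal proteins serve the separate ribosome of mitochondria. Of 78 tested, 1 was called higher in As300 against Control (edgeR), beside 1.06% of all genes in either direction. In all, 67 were higher and the median log2 fold change was 0.17. Other protein-coding genes under 1500 nt had medians of 0.16 to 0.28 there, by length class. The medians were 0.12 in ASC and 0.08 in ASC_As300, with no call by edgeR in either. There 13 and 11 were higher at an unadjusted p under 0.05, against 8.55% and 8.7% of all genes. The interaction had a median of -0.23.

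Of 16 genes of the p53 and integrated stress responses, Bax, a p53 target that promotes apoptosis, was called in As300 (1.53-fold, edgeR adjusted p = 0.045). Cdkn1a, the p53 target that encodes p21, was 1.36-fold higher (edgeR adjusted p = 0.043), under the minimum fold, and the median of the list was 0.05 on the log2 scale. At an unadjusted p under 0.05, 2324 of all 20818 genes were higher and 2701 lower. Of the list 3 were higher, with Bbc3, which encodes the p53 target Puma, beside Bax and Cdkn1a, and 3 were lower. The lower ones were Mdm4, an inhibitor of p53, with a log2 fold change of -0.85 (edgeR adjusted p = 0.174), and the p53 targets Ccng1 (-0.35, edgeR adjusted p = 0.115) and Sesn1 (-0.29, edgeR adjusted p = 0.196). The 143 tested rows named as pseudogenes of members had a median log2 fold change of 0.38 in As300. Of these rows 3 were called, all higher, beside 1.06% of all genes in either direction. Reads of a gene and its copy cannot be told apart here.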
